A study of Mus musculus with 30 samples.

Results

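The 6 genes described here carry out glutathione synthesis, cystine uptake and the recycling of oxidised thiols. They are Slc7a11, Gclc, Gclm, Gss, Gsr and Glrx, found by symbol among the 29861 genes of the deposited expression table, and they were picked for description with earlier results of these data known. RNA was sequenced from CCG-HTA-1, a primary tail fibroblast line from UMHet3 mice, a genetically mixed stock, 48 hours after a compound or the solvent DMSO was added. The study's title asks which routes to cellular stress resistance depend on NRF2 and which do not. There were 3 libraries for each of 8 compounds and 6 for DMSO, 30 in all.

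Every group shared the line, passage 4, high-glucose medium without pyruvate and ambient oxygen. The mice were labelled as 5 to 8 weeks old when the cells were taken, except for Dihydrorotenone replicate 1, labelled 8 to 11 weeks. The groups were named DMSO, Antimycin A (blocks complex III of the respiratory chain), Dihydrorotenone (a rotenone derivative; rotenones block complex I), Diphenyleneiodonium Cl (blocks flavoenzymes, complex I among them), Cardamonin (a chalcone from plants), BerberineA, Clofilium tosylate (blocks potassium channels), AEG 3482 and Podofilox (binds tubulin and prevents its assembly). Doses are not given in the sources used here, so compounds cannot be set side by side at matched strength. All libraries come from 1 cell line, and the p-values measure the spread between its cultures or libraries, which may be technical. The libraries carry numbers that run consecutively within each group; what these numbers stand for is not given in the sources used here.

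Glutathione is a tripeptide of glutamate, cysteine and glycine and the most abundant small thiol of most cells. Cysteine, which usually limits its synthesis, enters many cultured cells as cystine through system xc-, an exchanger built from the light chain encoded by Slc7a11 and the heavy chain encoded by Slc3a2. Glutamate-cysteine ligase, with the catalytic subunit Gclc and the modifier subunit Gclm, makes gamma-glutamylcysteine, and glutathione synthetase, encoded by Gss, adds glycine. Gsr encodes glutathione reductase, which returns oxidised glutathione to its reduced form with NADPH, and Glrx encodes the cytosolic glutaredoxin that removes glutathione from protein thiols. NRF2 is a transcription factor released from KEAP1 by electrophiles and is known to act on antioxidant response elements near several of these genes. ATF4, induced when amino acids run short or the endoplasmic reticulum is stressed, is known to act on C/EBP-ATF response elements, including those upstream of Slc7a11.

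Promoter windows of 250 bases before the RefSeq transcription start were searched because several of these genes moved together. RefSeq sequence of GRCm38.p6 was matched by symbol for 4 of the 6 genes, namely Slc7a11, Gclm, Gss and Glrx. The letters searched, on both strands, were TGACNNNGC for the core of the antioxidant response element and TGATGNAA for the C/EBP-ATF response element. Capitals below mark a match, and the windows of Slc7a11, Gclm and Glrx are printed because they hold matches to the C/EBP-ATF letters, to the antioxidant core, and to neither. They lie at chr3:50443614-50443863 on the minus strand, chr3:122245307-122245556 on the plus strand and chr13:75839635-75839884 on the plus strand, each printed 5′ to 3′ along its gene.
Slc7a11: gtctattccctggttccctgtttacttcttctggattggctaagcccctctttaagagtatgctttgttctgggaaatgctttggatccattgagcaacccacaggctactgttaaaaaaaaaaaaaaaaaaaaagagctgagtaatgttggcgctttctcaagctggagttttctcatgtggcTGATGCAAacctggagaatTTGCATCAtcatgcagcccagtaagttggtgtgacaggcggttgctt
Gclm: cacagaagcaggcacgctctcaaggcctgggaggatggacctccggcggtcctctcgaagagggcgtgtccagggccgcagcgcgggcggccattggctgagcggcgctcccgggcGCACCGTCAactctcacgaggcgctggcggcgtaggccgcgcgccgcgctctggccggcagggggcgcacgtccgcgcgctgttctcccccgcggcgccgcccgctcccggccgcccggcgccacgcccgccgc
Glrx: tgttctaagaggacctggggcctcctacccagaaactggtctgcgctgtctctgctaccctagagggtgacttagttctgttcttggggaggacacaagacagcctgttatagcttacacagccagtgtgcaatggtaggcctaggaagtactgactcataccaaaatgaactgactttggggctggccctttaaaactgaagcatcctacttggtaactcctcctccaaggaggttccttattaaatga
The Slc7a11 window held 2 matches to the C/EBP-ATF letters, TGATGCAA from 66 to 59 bases before the start and TTGCATCA, the same letters on the other strand, from 47 to 40 bases before it. Such a match occurred in 3.45% of 32851 RefSeq windows of this length. The Gclm window held 1 match to the antioxidant core, GCACCGTCA on the opposite strand, from 134 to 126 bases before the start. That core occurred in 10.16% of the windows. The windows of Gss and Glrx held neither motif, and in Slc7a11 and Gclm the motifs did not overlap. A match describes letters and not binding, and elements farther from the start were not searched.

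The genes of the table summed to between 927024 and 937134 TPM per library, TPM keeps no read depth, so the depth of each library is unknown, and libraries of a group correlated at r between 0.9858 and 0.9925 across genes. The 10 fibroblast markers all averaged at least 1 TPM in every group, with a summed level of 6163 to 8029 TPM in Cardamonin, 14691 to 16807 TPM in AEG 3482 and 14046 to 16830.5 TPM in DMSO. The 6 keratinocyte markers summed to 1.71 to 1.81 TPM in Cardamonin, 2.16 to 2.43 TPM in AEG 3482 and 1.57 to 2.12 TPM in DMSO, with Krt5 at 0 in every library. The 5 skeletal muscle markers summed to at most 0.829 TPM in any library, with Myod1 at 0, and to 0.0809 to 0.182 TPM in AEG 3482 against 0.232 to 0.659 TPM in DMSO. The 5 endothelial markers, mainly Tek, summed to 2.23 to 2.93 TPM in Cardamonin, 2.40 to 2.55 TPM in AEG 3482 and 6.13 to 9.82 TPM in DMSO, with Cdh5 at or below 0.0300 TPM. The 5 leukocyte and macrophage markers summed to 28.8 to 45.1 TPM in Cardamonin, 19.1 to 20.8 TPM in AEG 3482 and 25.2 to 29.9 TPM in DMSO, led by Cd68, with Ptprc at or below 0.876 TPM. The 4 melanocyte markers, mainly Mlana, summed to 1.27 to 1.83 TPM in Cardamonin, 1.55 to 2.22 TPM in AEG 3482 and 4.54 to 6.93 TPM in DMSO, reaching 18.6 TPM in Antimycin A. The 4 cartilage markers, nearly all Comp, summed to 164 to 194.6 TPM in Cardamonin, 231 to 261 TPM in AEG 3482 and 278.9 to 314 TPM in DMSO, with Acan at or below 0.0120 TPM. In Cardamonin the fibroblast, endothelial, melanocyte and cartilage sums thus lay wholly below DMSO. In AEG 3482 the endothelial, skeletal muscle, leukocyte, melanocyte and cartilage sums did, and the keratinocyte sum lay wholly above DMSO. The fibroblast sum also lay wholly below DMSO in Antimycin A, Diphenyleneiodonium Cl, BerberineA, Clofilium tosylate and Podofilox. The leukocyte sum did in Antimycin A, Dihydrorotenone, Diphenyleneiodonium Cl, Clofilium tosylate and Podofilox. The cartilage sum did in Antimycin A, Clofilium tosylate and Podofilox. The melanocyte sum lay wholly above DMSO in Antimycin A, Dihydrorotenone, Diphenyleneiodonium Cl, BerberineA and Clofilium tosylate. The part of these lists in the results was not tested. In such bulk RNA, fewer cells of a type and less RNA per cell cannot be told apart. Over all genes, median-ratio scaling turned the split of calls from 5634 higher and 3653 lower to 4481 and 4611 in AEG 3482, from 676 and 1287 to 975 and 947 in Dihydrorotenone, and from 1717 and 1250 to 1480 and 1620 in BerberineA. It moved the median difference of all genes in AEG 3482 from 0.10 to −0.0091 on the log2 scale.

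Cardamonin and AEG 3482 raised 5 of the 6 genes by between 5.38-fold and 22.7-fold in mean TPM (transcript abundance corrected for transcript length and library total), and both lowered Glrx. Podofilox raised the same 5 genes by less, Antimycin A raised them by at most 0.54 on the log2 scale, and Dihydrorotenone and BerberineA raised none. A gene counted as changed when its Benjamini-Hochberg adjusted p was below 0.05 in limma, fitted to log2(TPM + 1) over all 13644 genes that passed a filter on low values; all 6 genes passed that filter. In Cardamonin 5 genes rose and 1 fell, where 37.3% of all tested genes rose and 33.0% fell, 70.3% in all. AEG 3482 gave the same count, where 41.3% rose and 26.8% fell, 68.1% in all. Podofilox also raised 5 and lowered 1, where 26.2% rose and 20% fell, 46.2% in all. Antimycin A raised 5 and lowered 0, where 21.8% rose and 15.5% fell, 37.3% in all. Diphenyleneiodonium Cl raised 3 and lowered 0, where 14.0% rose and 11.7% fell, 25.7% in all. Clofilium tosylate raised 3 and lowered 0, where 10.9% rose and 12.5% fell, 23.4% in all. Dihydrorotenone raised 0 and lowered 3, where 4.95% rose and 9.43% fell, 14.4% in all. BerberineA raised 0 and lowered 1, where 12.6% rose and 9.16% fell, 21.7% in all. Most genes changed in Cardamonin and AEG 3482, so there the counts of members say less than the sizes: the median log2 difference of the 6 genes was 3.56 in Cardamonin and 2.66 in AEG 3482, against 0.03 and 0.10 over all tested genes. All 8 comparisons use the same DMSO libraries.

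**Figure D1:**
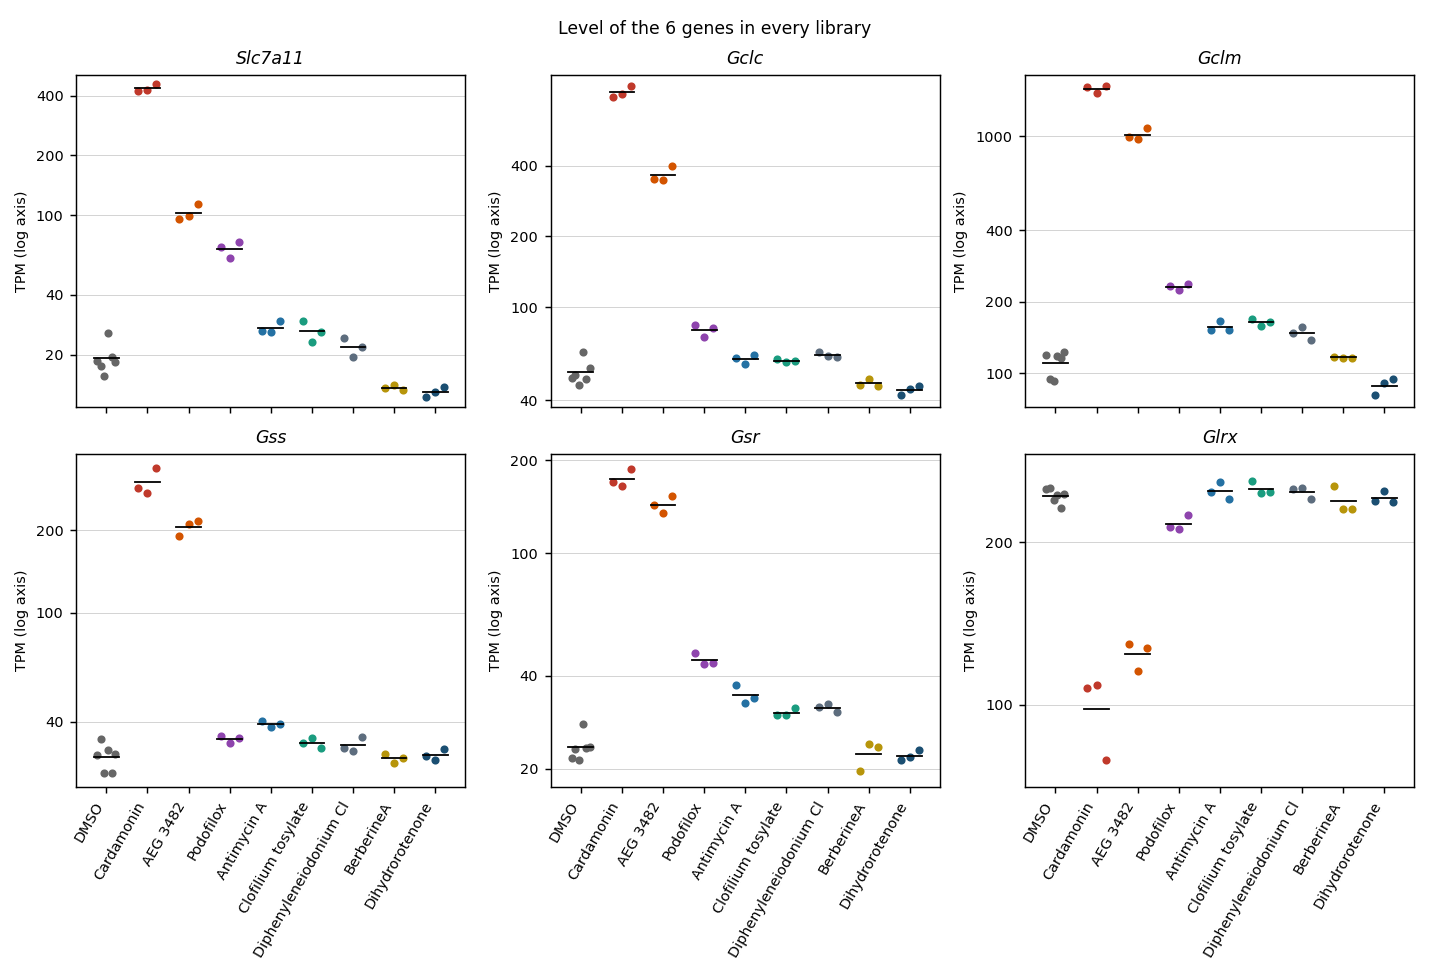
TPM (log axis) of the 6 genes in each of the 30 libraries, with 1 point per library and a bar at the group mean. Slc7a11, Gclc, Gclm, Gss and Gsr were highest in Cardamonin and next highest in AEG 3482, while Glrx was lowest in Cardamonin, from 79.0 to 108.9 TPM against 231.6 to 251.7 TPM in DMSO.

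Slc7a11, the light chain that carries out cystine exchange, had the lowest DMSO level of the 6 genes and the largest single rise. The gene (ENSMUSG00000027737) spans positions 49892526 to 50443614 of chromosome 3 on the minus strand of GRCm38. Its level in the 6 DMSO libraries ran from 15.7 through a median of 18.4 to 25.7 TPM. In Cardamonin it was 422, 428 and 455 TPM. AEG 3482 gave 96.0, 99.3 and 114 TPM, and Podofilox gave 69.2, 61.2 and 73.3 TPM. All 9 of these libraries lay above every DMSO library, and the 3 groups did not overlap each other. The mean was 22.7-fold that of DMSO in Cardamonin, 5.38-fold in AEG 3482 and 3.54-fold in Podofilox. The log2 differences were 4.45 (limma adjusted p = 2.72e-22), 2.38 (1.27e-16) and 1.78 (2.18e-13), with a standard error of 0.10 in every comparison of this gene.

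The other 5 compounds moved Slc7a11 in both directions. Antimycin A gave 26.3, 26.1 and 29.4 TPM, all above DMSO, and the gene rose by 0.50 on the log2 scale (limma adjusted p = 0.000288). Clofilium tosylate gave 29.5, 23.1 and 25.9 TPM, which overlapped the highest DMSO library, and the gene rose by 0.44 (limma adjusted p = 0.00212). Dihydrorotenone, with 12.2, 13.0 and 13.7 TPM, and BerberineA, with 13.6, 14.0 and 13.2 TPM, lay below every DMSO library. There Slc7a11 fell by 0.52 (limma adjusted p = 0.00103) and by 0.45 (0.00162). In Diphenyleneiodonium Cl the values of 24.3, 19.5 and 21.8 TPM overlapped DMSO, and the difference of 0.19 had an interval from −0.02 to 0.40 (limma adjusted p = 0.179). That call turned on DMSO replicate 4, the highest DMSO library: without it the difference was 0.27 (limma adjusted p = 0.0138; range over all alternatives 0.00962 to 0.547).

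Slc3a2, the heavy chain that brings the light chain to the membrane, moved with Slc7a11 but by less. It was 608, 599 and 644 TPM in Cardamonin, 270.2, 292 and 263 TPM in AEG 3482 and 184, 179.9 and 186 TPM in Podofilox, against 115 to 133.6 TPM in DMSO with a median of 129.8 TPM. Its log2 difference was 2.26 in Cardamonin, 1.10 in AEG 3482 and 0.52 in Podofilox, and 0.30 in Clofilium tosylate and 0.35 in Antimycin A, each past the limma threshold. It fell by 0.23 in BerberineA and by 0.19 in Dihydrorotenone, and in Diphenyleneiodonium Cl the difference was 0.07, which did not pass. TPM divides by transcript length, so the light and heavy chains can be compared within a library. The ratio of Slc7a11 to Slc3a2 averaged 0.150 ± 0.0248 in DMSO (SD, n = 6), 0.705 ± 0.0109 in Cardamonin, 0.376 ± 0.050 in AEG 3482 and 0.370 ± 0.0276 in Podofilox (SD, n = 3 each). Every library of these 3 compounds lay above the DMSO range of 0.119 to 0.192. The log2 differences of 2.25, 1.33 and 1.32 each reached the smallest p that 84 splits of 9 libraries allow, 0.0119 in a two-sided exact permutation test, or 0.0476 adjusted over 24 tests. For the other 5 compounds the ratio overlapped DMSO and averaged between 0.116 and 0.168. With limma on the log ratios in place of the permutation test, Dihydrorotenone also passed, with a difference of −0.36 (limma adjusted p = 0.0117).

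Gclc encodes the catalytic subunit of glutamate-cysteine ligase, the first and usually rate-limiting step. It lies on chromosome 9, positions 77754535 to 77794485, plus strand (ENSMUSG00000032350). DMSO libraries ran from 46.3 through a median of 50.6 to 64.5 TPM. With Cardamonin the libraries read 784, 810.2 and 875 TPM. Those with AEG 3482 read 351, 348 and 399 TPM, and those with Podofilox 83.4, 74.6 and 81.4 TPM. The 3 groups stood apart from DMSO and from each other. Mean levels were 15.6-fold, 6.93-fold and 1.51-fold those of DMSO. The log2 differences were 3.94 (limma adjusted p = 4.68e-24), 2.78 (3.88e-21) and 0.59 (9.41e-08), with a standard error of 0.07 throughout.

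In the remaining compounds Gclc moved little. Diphenyleneiodonium Cl gave 64.5, 62.1 and 61.1 TPM and a rise of 0.25 (limma adjusted p = 0.0087, and 0.0676 when fitted with DMSO alone, the highest over its alternatives from 0.000122), and Antimycin A gave 60.4, 57.1 and 62.1 TPM and a rise of 0.19 (0.0358). Both groups overlapped DMSO, whose replicate 4 was at 64.5 TPM. The Antimycin A call was lost in 11 of 20 alternatives, among them all 3 other scalings and leaving out DMSO replicate 1, 2, 3 or 5 or Antimycin A replicate 1 or 3 (limma adjusted p between 0.000852 and 0.143 over the alternatives). Clofilium tosylate, at 60.04, 58.6 and 58.7 TPM, differed by 0.17 (limma adjusted p = 0.0811), and by 0.23 without DMSO replicate 4 (0.00316, in a range of 0.00292 to 0.223). Dihydrorotenone, at 42.0, 44.8 and 46.0 TPM, lay just below every DMSO library, and Gclc fell by 0.24 (limma adjusted p = 0.0188). The call was lost in 4 of 20 alternatives: without its replicate 1, the library with the different age label (limma adjusted p = 0.117), without its replicate 2 (0.052), with DMSO alone (0.129) and with a replicate block, where the difference was −0.15 (0.105; lowest over the alternatives 0.00696). BerberineA, at 46.6, 49.4 and 46.1 TPM, overlapped DMSO, with a difference of −0.15 and an interval from −0.29 to −0.0037 (limma adjusted p = 0.142).

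Gclm encodes the modifier subunit, which lowers the ligase's Michaelis constant for glutamate and relieves its inhibition by glutathione. The gene (ENSMUSG00000028124) occupies chromosome 3 from 122245557 to 122270732 on the plus strand. Of its transcripts' 31-base words, 5.61% also occur in other genes, Ppia, Gm10123 and Gm6061 among them, against 2.84% of those of Slc7a11. The pseudogene Gm6061 lies inside Gclm on the same strand, with a mean of 4.615 TPM. The DMSO range was 92.3 to 122 TPM with a median of 116.5 TPM. Cardamonin brought it to 1609.9, 1519 and 1622 TPM, the highest levels of any of the 6 genes. AEG 3482 brought it to 988, 975 and 1077 TPM, and Podofilox to 232, 224 and 238 TPM. No library of these 3 compounds came near the DMSO range, and the 3 groups were separate. Means were 14.4-fold, 9.18-fold and 2.10-fold those of DMSO, and the log2 differences were 3.84 (limma adjusted p = 1.33e-23), 3.19 (7.48e-22) and 1.07 (6.54e-12), with a standard error of 0.07.

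Gclm also rose in 3 compounds with smaller effects. Clofilium tosylate gave 168, 157 and 165 TPM and a difference of 0.57 (limma adjusted p = 2.04e-06). Antimycin A gave 152, 166 and 152 TPM and 0.51 (limma adjusted p = 3.55e-06), and Diphenyleneiodonium Cl gave 148, 157 and 137.5 TPM and 0.42 (8.37e-05). All 9 libraries lay above the DMSO range. BerberineA, at 117, 116 and 116 TPM, sat inside that range with a difference of 0.09 and an interval from −0.06 to 0.24. In Dihydrorotenone, at 80.6, 90.5 and 94.2 TPM, Gclm fell by 0.31 (limma adjusted p = 0.00454) although its highest library overlapped the lowest of DMSO. This call was lost in 3 of 20 alternatives: without Dihydrorotenone replicate 1 (limma adjusted p = 0.0585), with DMSO alone (0.0838) and with a replicate block, where the difference was −0.20 (0.0998; lowest over the alternatives 0.000645).

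The modifier and catalytic subunits did not keep the same ratio in every compound. Gclm to Gclc averaged 2.10 ± 0.252 in DMSO (SD, n = 6), with a range of 1.82 to 2.41. It was 2.91 ± 0.114 in Podofilox (SD, n = 3), where the log2 difference of 0.48 passed the exact permutation test (adjusted p = 0.0476). The ratio was 2.77 in AEG 3482, 2.77 in Clofilium tosylate and 2.62 in Antimycin A, with every library above the DMSO range, but the exact permutation test did not pass in any of them (adjusted p = 0.0635 each). In Cardamonin, which raised both subunits most, the ratio was 1.93 ± 0.110 (SD, n = 3) and overlapped DMSO, with a log2 difference of −0.12 (exact permutation, adjusted p = 0.436). With limma on the log ratios in place of the permutation test, 5 compounds passed: Podofilox, AEG 3482, Clofilium tosylate, Antimycin A and BerberineA.

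**Figure D2:**
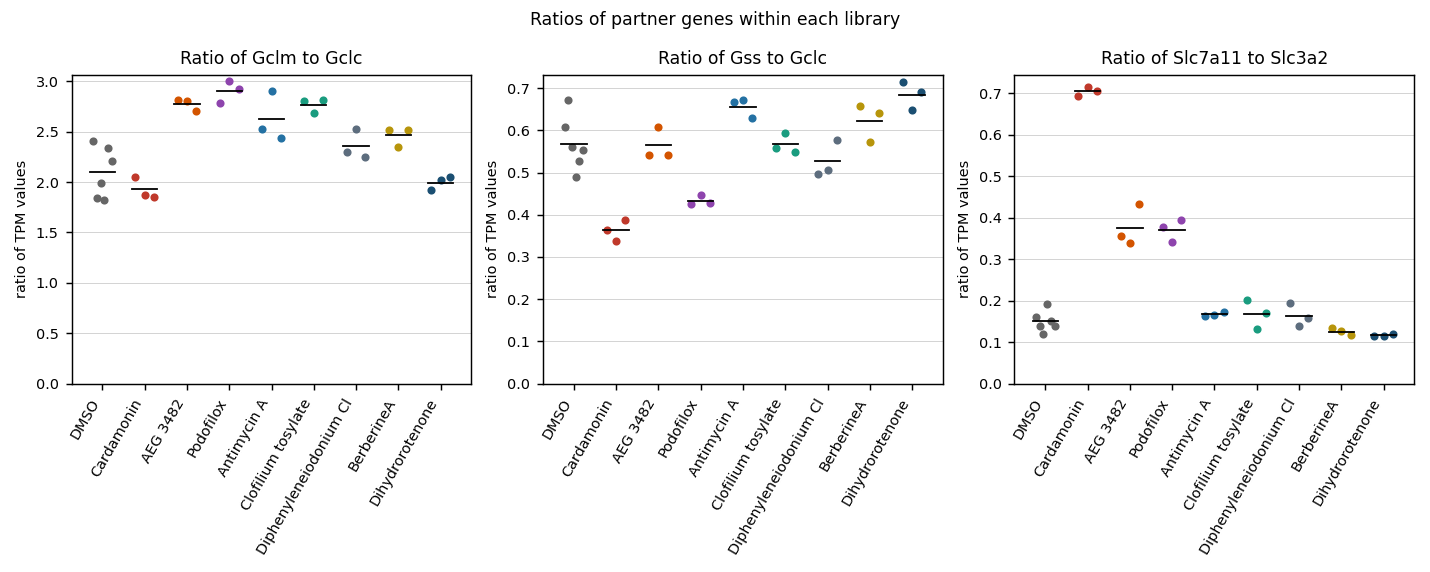
Ratios of TPM values within each library for Gclm to Gclc, Gss to Gclc and Slc7a11 to Slc3a2, with 1 point per library and a bar at the group mean; axes start at 0. Cardamonin and Podofilox fell below the DMSO range of 0.490 to 0.671 in Gss to Gclc, and Cardamonin, AEG 3482 and Podofilox lay above the DMSO range of 0.119 to 0.192 in Slc7a11 to Slc3a2.

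Gss, which encodes the enzyme of the second step, rose most in Cardamonin and AEG 3482. It lies on chromosome 2 from 155563181 to 155592810, minus strand (ENSMUSG00000027610), and overlaps Acss2 on the opposite strand, which averaged 10.8 TPM. Use of strand in the counting is not given in the sources used here, so reads from the shared stretch could have gone to either gene. DMSO libraries had 26.0 to 34.5 TPM, with a median of 30.4 TPM. Cardamonin had 286, 274 and 339 TPM, and AEG 3482 had 191, 211 and 216 TPM. These 6 libraries were far above all others. Means were 10.04-fold and 6.90-fold those of DMSO, and the log2 differences 3.29 (limma adjusted p = 1.73e-22) and 2.75 (1.06e-20), with a standard error of 0.07.

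Elsewhere Gss hardly left the DMSO range. Antimycin A, at 40.3, 38.3 and 39.2 TPM, was the exception, with all libraries above DMSO and a rise of 0.39 (limma adjusted p = 0.000105). Podofilox, at 35.5, 33.4 and 34.8 TPM, overlapped the highest DMSO library, and its rise of 0.21 (limma adjusted p = 0.0184) was lost in 6 of 20 alternatives, among them leaving out Podofilox replicate 1 or 3 (range 0.00357 to 0.0761). Clofilium tosylate, at 33.5, 34.8 and 32.1 TPM, differed by 0.17 (limma adjusted p = 0.0991), and passed in 1 of 20 alternatives, without DMSO replicate 2 (0.0275, in a range of 0.0275 to 0.297). Diphenyleneiodonium Cl differed by 0.14, Dihydrorotenone by 0.03 and BerberineA by −0.01, none of which passed, and their 9 libraries ran from 28.3 to 35.2 TPM. Set against Gclc, Gss lagged in 2 compounds. The ratio of Gss to Gclc averaged 0.569 ± 0.0635 in DMSO (SD, n = 6), 0.364 ± 0.0243 in Cardamonin and 0.433 ± 0.0123 in Podofilox (SD, n = 3 each), with log2 differences of −0.64 and −0.39 (exact permutation, adjusted p = 0.0476 for both). In AEG 3482 the ratio was 0.564 ± 0.0377 (SD, n = 3) and the difference −0.0062 (exact permutation, adjusted p = 0.981), where mean Gclc was 6.93-fold and mean Gss 6.90-fold that of DMSO.

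Gsr, the reductase that regenerates glutathione, rose in 6 compounds. Its position is 33652523 to 33698163 of chromosome 8 on the plus strand (ENSMUSG00000031584). Levels in DMSO were 21.3 to 27.99 TPM with a median of 23.3 TPM. Those in Cardamonin were 169.6, 165 and 187 TPM. Those in AEG 3482 were 143, 135 and 153 TPM, and those in Podofilox 47.3, 43.7 and 43.9 TPM. The lowest Podofilox library was still well above the highest DMSO library. The log2 differences were 2.84 (limma adjusted p = 1.06e-21), 2.56 (1.6e-20) and 0.91 (5.65e-11), or 7.40-fold, 6.11-fold and 1.91-fold in mean TPM, with a standard error of 0.07. For Antimycin A, at 37.2, 32.7 and 33.8 TPM, Gsr rose by 0.54 (limma adjusted p = 7.21e-07). Diphenyleneiodonium Cl, at 31.7, 32.5 and 30.4 TPM, gave a rise of 0.41 (limma adjusted p = 5.9e-05), and Clofilium tosylate, at 29.8, 29.8 and 31.4 TPM, one of 0.36 (0.000383). All 9 libraries of these compounds lay above the DMSO range. BerberineA, at 19.6, 24.1 and 23.5 TPM, and Dihydrorotenone, at 21.3, 21.8 and 23.0 TPM, overlapped DMSO, with differences of −0.07 and −0.08 and intervals from −0.21 to 0.07 and from −0.23 to 0.06.

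Glrx fell where the other 5 genes rose most. The cytosolic glutaredoxin gene (ENSMUSG00000021591) lies on the plus strand of chromosome 13, positions 75839868 to 75850154. Its DMSO levels, 231.6 to 251.7 TPM with a median of 245 TPM, were the highest of the 6 genes. They were 107, 108.9 and 79.0 TPM in Cardamonin and 129.8, 116 and 127.6 TPM in AEG 3482, all far below DMSO and with no overlap between the 2 groups. Podofilox gave 214, 211 and 225 TPM, also below every DMSO library but by little. The mean in DMSO was 2.48-fold that in Cardamonin and 1.96-fold that in AEG 3482. Glrx fell by 1.32 (limma adjusted p = 1.65e-15) and by 0.97 (1.41e-12) in these compounds, with a standard error of 0.07. In Podofilox it fell by 0.17 (limma adjusted p = 0.0336), a call lost without Podofilox replicate 1 (0.0998) or 2 (0.111), without DMSO replicate 1 (0.0564) or 2 (0.0573) and without a filter on low values (0.0558; lowest over the alternatives 0.0058). The other 5 compounds ran from 230.1 to 259.8 TPM and differed from DMSO by −0.03 to 0.04, with intervals inside −0.17 to 0.18. From having the highest level of the 6 genes in DMSO, Glrx had the lowest in Cardamonin, where mean TPM was 1584 for Gclm, 823 for Gclc, 435 for Slc7a11, 299.6 for Gss, 174 for Gsr and 98.4 for Glrx.

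**Figure D3:**
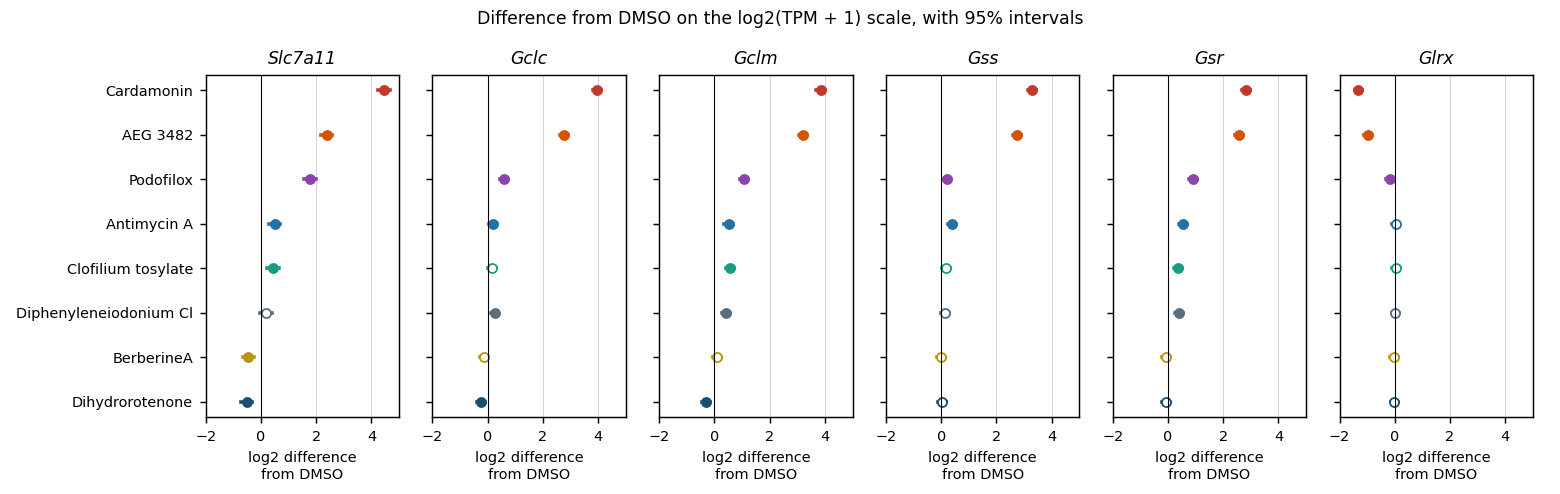
Log2 difference of each compound from DMSO on the log2(TPM + 1) scale for the 6 genes, with 95% intervals; filled points passed limma at an adjusted p of 0.05 and open points did not. In Cardamonin the differences were 4.45 for Slc7a11, 3.94 for Gclc, 3.84 for Gclm, 3.29 for Gss, 2.84 for Gsr and −1.32 for Glrx.

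The compounds were also compared with each other, in 28 pairs and with p-values adjusted over all genes and pairs. Of 168 tests, 6 genes in 28 pairs, 132 passed, where 39.6% passed over all genes. That share pools the 28 pairs. Shares of all genes for single pairs are not given here, so the counts of members in single pairs have no background. Slc7a11 and Gclm differed in 25 pairs each, Gclc and Gsr in 24 each, Gss in 18 and Glrx in 16. Cardamonin and AEG 3482 differed in all 6 genes. Slc7a11 was higher in Cardamonin by 2.07 on the log2 scale (limma adjusted p = 8.64e-14), Gclc by 1.17 (3.95e-12), Gclm by 0.64 (4.69e-07), Gss by 0.53 (7.44e-06) and Gsr by 0.27 (0.00694), and Glrx was lower by 0.35 (0.000458). AEG 3482 stood above Podofilox by only 0.60 in Slc7a11 (limma adjusted p = 0.000142), but by 2.54 in Gss, 2.18 in Gclc, 2.12 in Gclm and 1.65 in Gsr. Podofilox thus came closer to AEG 3482 in the transporter gene than in the 4 enzyme genes, as values; the difference between genes was not tested.

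Some compounds differed from each other in few or none of these genes, with no share of all genes for the same pair to compare. Diphenyleneiodonium Cl and Clofilium tosylate differed in 0 of 6 genes. The widest of these differences was in Slc7a11, −0.25 with an interval from −0.49 to −0.0085 (limma adjusted p = 0.0963). Antimycin A and Clofilium tosylate differed in 1, Gss, which was higher in Antimycin A by 0.22 (limma adjusted p = 0.0337). Dihydrorotenone and BerberineA differed in 1, Gclm, which was lower in Dihydrorotenone, with a difference of −0.40 (limma adjusted p = 0.000343). Antimycin A and Diphenyleneiodonium Cl differed in 2, Slc7a11 (0.31, limma adjusted p = 0.0353) and Gss (0.25, 0.0179). Antimycin A and Dihydrorotenone differed in 5 of 6 genes, Antimycin A being the higher in each of the 5. When the 9 groups were ordered by level, 20 of 48 neighbouring groups differed, with no share of all genes to compare. Ordering by the same values makes neighbours the closest groups, so a stretch without differing neighbours can hold groups that differ. Steps next to DMSO kept the adjustment of the comparison with DMSO. For Slc7a11 the order was Cardamonin, AEG 3482, Podofilox, Antimycin A, Clofilium tosylate, Diphenyleneiodonium Cl, DMSO, BerberineA and Dihydrorotenone. In it the neighbours from Antimycin A to DMSO did not differ, nor did BerberineA and Dihydrorotenone. Within that stretch Antimycin A did differ from Diphenyleneiodonium Cl and from DMSO, and Clofilium tosylate from DMSO. For Glrx the order ran from Clofilium tosylate at 251 TPM to Podofilox at 216 TPM with no neighbours that differed, and then down to AEG 3482 and Cardamonin, both steps past the threshold. Podofilox was nonetheless lower than Clofilium tosylate (limma adjusted p = 0.0248), Antimycin A (0.0363), Diphenyleneiodonium Cl (0.0446) and DMSO (0.0336).

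As a description over the 9 group means, which share the library scaling, the 6 genes fell into 5 that ran together and 1 that ran opposite. Pearson r on log2(TPM + 1) between the first 5 genes ran from 0.9019 for Slc7a11 and Gss to 0.9949 for Gclm and Gsr. Glrx had r of −0.9205 with Slc7a11 and −0.9889 with Gclc. The genes most like each member among 10213 protein-coding genes with at least 5 TPM in their highest group were named by the same measure. For Slc7a11 they were Dph2 (0.9934), Ddx54 and Jkamp. For Gclc they were Gsta1 (0.9976), a glutathione S-transferase, Ago3 and Abcc4. Hmga1b (0.9965), Tpm3-rs7 and Gsr came closest to Gclm, and Pde12 (0.9963), Pir and Cgnl1 to Gss. Esd (0.9977), Rad23b and Cnih4 were closest to Gsr. Glrx was most like Ccl7 (0.9947), a chemokine gene that went from 2394 TPM in its highest group to 198 TPM in its lowest, Ikbke and Atxn10. In most of these genes Cardamonin and AEG 3482 lay far from the other 7 groups, so these values rest largely on 2 points.

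Another 60 genes of the pathway were followed, of which 55 passed the filter on low values. In Cardamonin 33 rose and 12 fell, where 37.3% of all tested genes rose and 33.0% fell. In AEG 3482 34 rose and 10 fell, where 41.3% and 26.8% did. Podofilox had 32 higher and 13 lower (26.2% and 20% over all genes), and Antimycin A 23 and 8 (21.8% and 15.5%). Clofilium tosylate had 15 and 6 (10.9% and 12.5%), Diphenyleneiodonium Cl 8 and 10 (14.0% and 11.7%), BerberineA 8 and 8 (12.6% and 9.16%), and Dihydrorotenone 3 and 14 (4.95% and 9.43%). The median log2 difference of the 55 was 0.42 in Cardamonin, 0.37 in AEG 3482 and 0.28 in Podofilox, against 0.03, 0.10 and 0.04 over all tested genes.

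Chac1, an enzyme that cleaves glutathione inside the cell and a known ATF4 target, had the largest rise of the list in Cardamonin, Antimycin A and Clofilium tosylate. It was 40.4, 42.2 and 39.8 TPM in Cardamonin, 16.6, 22.9 and 21.9 TPM in Podofilox and 11.3, 14.5 and 11.8 TPM in AEG 3482, against 2.35 to 3.95 TPM in DMSO with a median of 3.12 TPM. Antimycin A gave 12.2, 13.1 and 14.3 TPM, and Clofilium tosylate 12.1, 15.8 and 11.2 TPM. All 15 libraries lay above the DMSO range, and the 5 log2 differences were 3.35, 2.38, 1.72, 1.80 and 1.77 in the order given (limma adjusted p between 5.54e-18 and 2.09e-10). Chac1 fell by 0.36 in Diphenyleneiodonium Cl and by 0.39 in Dihydrorotenone. Among all 12 tested genes of glutathione breakdown, 4 rose and 4 fell in Cardamonin, where 37.3% of all tested genes rose and 33.0% fell. In AEG 3482 4 rose and 6 fell, where 41.3% and 26.8% did, so falls were more frequent than over all genes there. Whether these counts differ from the background was not tested. Ggt1, a gamma-glutamyltransferase that breaks down glutathione at the cell surface, rose by 1.50 in Cardamonin, while Ggt5, a related enzyme, fell by 1.89 in Cardamonin and by 1.03 in AEG 3482. Ggt1 was near the filter, at 1.13 ± 0.479 TPM in DMSO (SD, n = 6). It averaged 5.00 TPM in Cardamonin, 2.33 TPM in AEG 3482 and 2.25 TPM in Antimycin A. Ggct, gamma-glutamylcyclotransferase, rose in AEG 3482 by 0.91. Chac2, a slower relative of Chac1, rose by 0.60 in Cardamonin and by 0.28 in Antimycin A, and fell by 0.33 in Podofilox and by 0.21 in AEG 3482. Anpep, an aminopeptidase that can split cysteinylglycine outside the cell, fell by 1.30 in AEG 3482, the largest fall of the list there. Its mean was 54.8 TPM in AEG 3482, 137 TPM in DMSO and 130 TPM in Cardamonin. In the remaining compounds the mean was above DMSO, from 168 TPM in Dihydrorotenone to 244 TPM in Antimycin A.

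**Figure D4:**
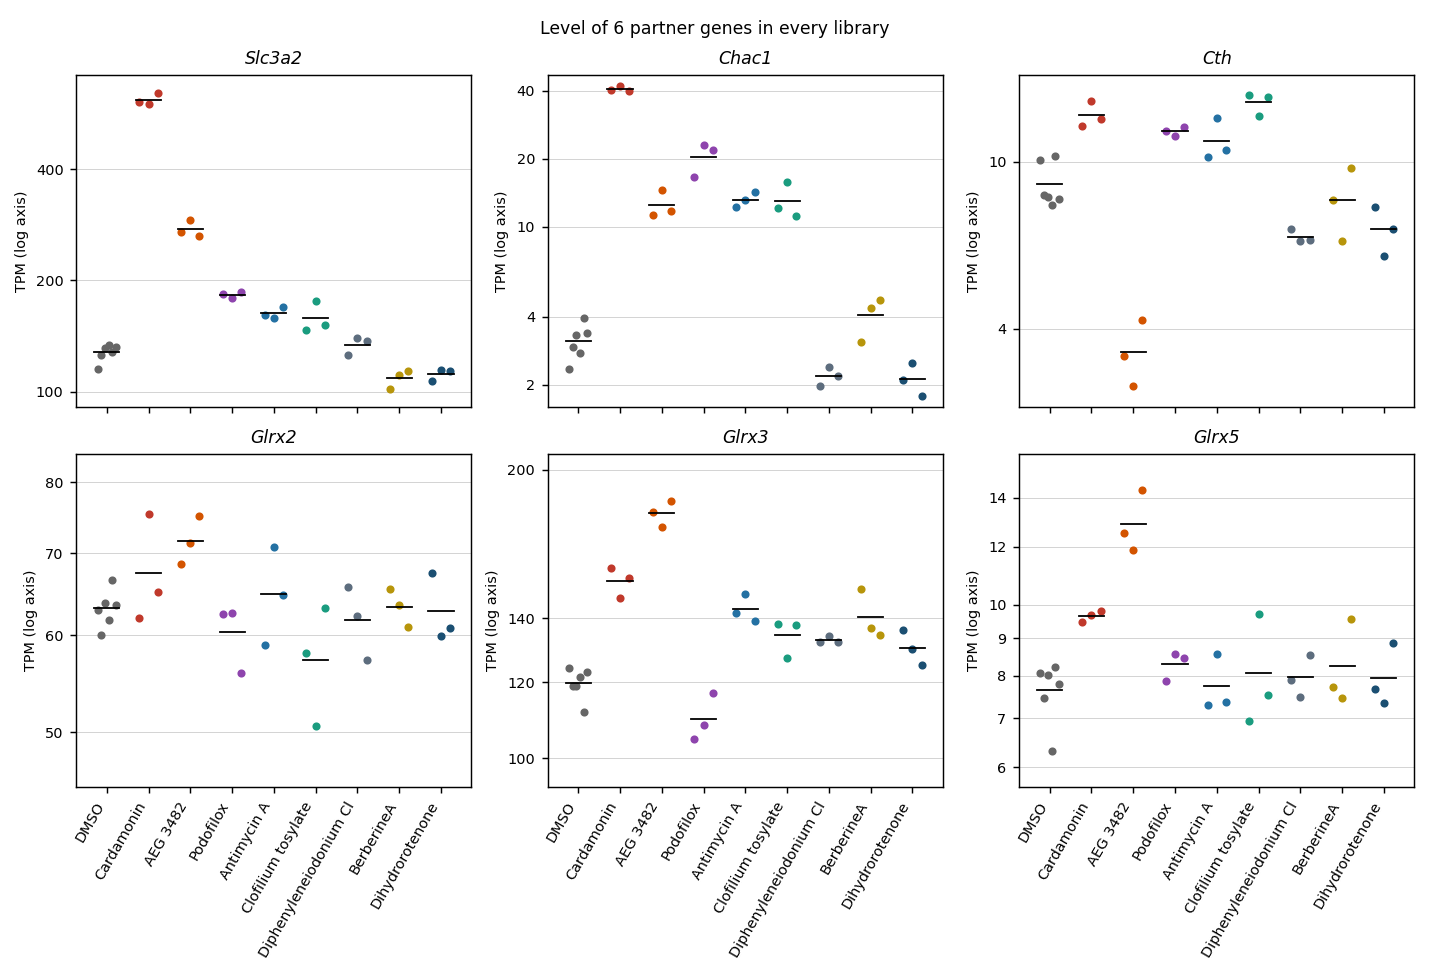
TPM (log axis) of Slc3a2, Chac1, Cth, Glrx2, Glrx3 and Glrx5 in each library, with 1 point per library and a bar at the group mean. Chac1 was above the DMSO range of 2.35 to 3.95 TPM in 5 compounds, and Cth was lowest in AEG 3482, at 2.92 to 4.19 TPM.

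Supply of cysteine from methionine went different ways. Cth, cystathionine gamma-lyase, which releases cysteine in transsulfuration, was 3.45, 2.92 and 4.19 TPM in AEG 3482, below the 7.89 to 10.3 TPM of DMSO, and fell by 1.13 (limma adjusted p = 4.8e-10). It rose by 0.50 in Cardamonin, 0.60 in Clofilium tosylate, 0.31 in Antimycin A and 0.39 in Podofilox, and fell by 0.36 in Diphenyleneiodonium Cl and by 0.32 in Dihydrorotenone. Cbs, cystathionine beta-synthase, was near the filter at 1.60 ± 0.43 TPM in DMSO (SD, n = 6), and fell by 0.59 in Cardamonin, by 0.62 in AEG 3482 and by 0.69 in Podofilox. In the opposite direction, Cdo1, cysteine dioxygenase, which oxidises cysteine and so draws on the same pool, averaged 344 ± 35.6 TPM (SD, n = 6) in DMSO, 887 ± 0.637 TPM in Antimycin A (SD, n = 3) and 165 ± 8.42 TPM in AEG 3482 (SD, n = 3). It rose by 1.37 in Antimycin A, 1.02 in BerberineA, 0.94 in Clofilium tosylate, 0.88 in Diphenyleneiodonium Cl, 0.71 in Dihydrorotenone and 0.46 in Podofilox. It fell by 0.72 in Cardamonin and by 1.05 in AEG 3482, so the 2 compounds with the highest Gclc and Gclm were the 2 in which Cdo1 fell.

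The other glutaredoxins did not follow the fall of Glrx in Cardamonin and AEG 3482. Glrx3, which handles iron-sulfur clusters in the cytosol, was 158, 147 and 154 TPM in Cardamonin and 180.7, 174 and 185 TPM in AEG 3482, above the DMSO range of 112 to 124 TPM. It rose by 0.35 and 0.59 (limma adjusted p = 7.07e-08 and 8.36e-12) and fell by 0.12 in Podofilox, where Glrx fell too. Higher Glrx3 was not particular to Cardamonin and AEG 3482. All libraries also lay above the DMSO range in Antimycin A (139 to 148 TPM), BerberineA (135 to 150 TPM) and Diphenyleneiodonium Cl (132 to 134 TPM). The same held in Clofilium tosylate (127 to 138 TPM) and Dihydrorotenone (125 to 136 TPM), though the Dihydrorotenone difference did not pass limma. Glrx5, a mitochondrial glutaredoxin of iron-sulfur cluster assembly, rose by 0.30 in Cardamonin and by 0.69 in AEG 3482. Glrx2, the other mitochondrial form, rose by 0.18 in AEG 3482 (limma adjusted p = 0.0214) and did not pass in the other 7 compounds, with a difference of 0.09 in Cardamonin. Txnrd1, thioredoxin reductase of the parallel thiol system, had the largest rise of the list in AEG 3482, 2.71, and rose by 2.77 in Cardamonin and 1.10 in Podofilox. It fell by 0.44 in BerberineA and by 0.33 in Dihydrorotenone. Abcc1, an exporter of glutathione conjugates named here after its values were seen, rose by 3.04 in Cardamonin and 2.70 in AEG 3482.

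**Figure D5:**
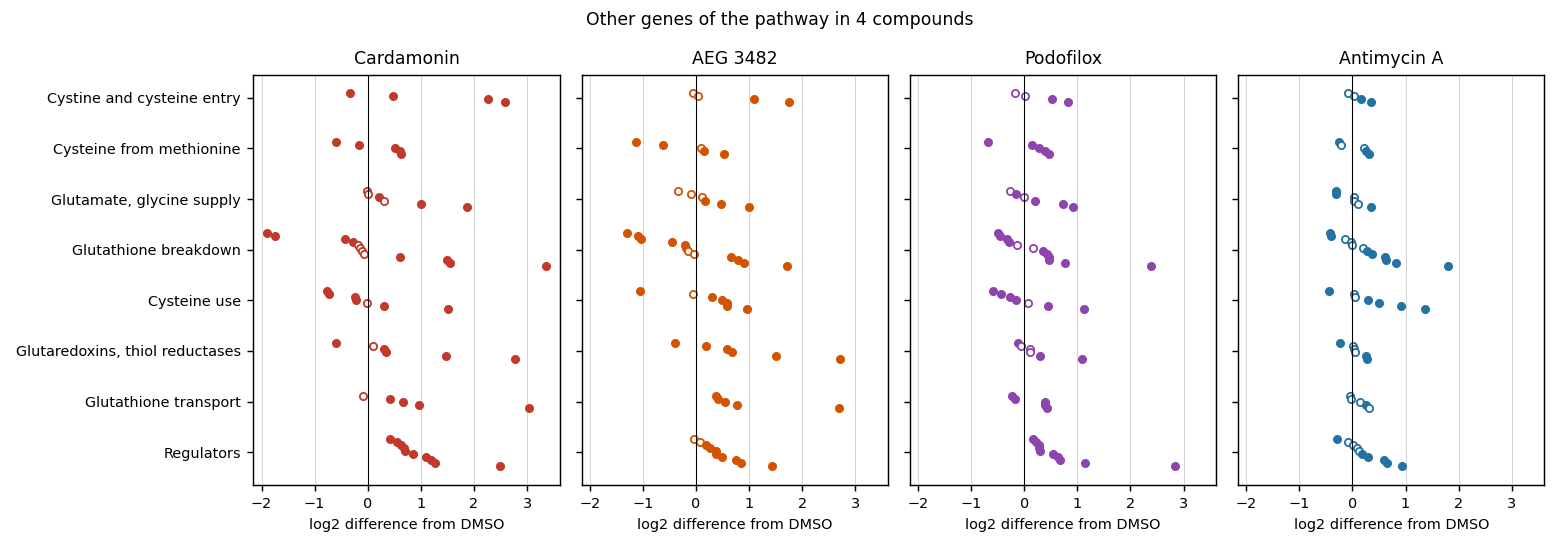
Log2 difference from DMSO of the tested genes of 8 groups of the pathway in Cardamonin, AEG 3482, Podofilox and Antimycin A; filled points passed limma at an adjusted p of 0.05 and open points did not. All 10 regulators were higher in Cardamonin and in Podofilox, while genes of glutathione breakdown lay on both sides of 0.

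All 10 tested regulators rose in Cardamonin and in Podofilox and 8 rose in AEG 3482, where 37.3%, 26.2% and 41.3% of all tested genes rose. Nfe2l2, which encodes NRF2, rose by 0.42 in Cardamonin, 0.38 in AEG 3482, 0.19 in Diphenyleneiodonium Cl and 0.17 in Podofilox. NRF2 is known to be controlled mainly through protein stability, which RNA does not measure. Keap1, its inhibitor, rose by 0.69, 0.75 and 0.28 in Cardamonin, AEG 3482 and Podofilox, and Bach1, a repressor at the same elements, rose by 0.63 in both Cardamonin and Podofilox. Atf4 was 282, 281 and 300.4 TPM in Cardamonin and 289, 312 and 295 TPM in Podofilox, against 125 to 144 TPM in DMSO, a rise of 1.10 and 1.15. It rose by 0.66 in Antimycin A, 0.49 in AEG 3482 and 0.45 in Clofilium tosylate. Atf3, a stress-induced factor, rose by 2.84 in Podofilox, the largest rise of the list there.

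Readouts of the 2 programmes are given as values beside the members. For NRF2 the readouts were Nqo1, Srxn1, Hmox1 and Txnrd1, with a median log2 difference of 3.65 in Cardamonin, 3.31 in AEG 3482 and 0.83 in Podofilox, and with 4, 4 and 3 of 4 higher, against the same shares of all genes as for the regulators. For ATF4 they were Asns, Trib3, Ddit3 and Chac1, with medians of 2.53 in Cardamonin and 1.66 in Podofilox, and of 1.43 in Clofilium tosylate, 1.54 in Antimycin A and 0.71 in AEG 3482, and 4 of 4 higher in each of the 5, where 37.3%, 26.2%, 10.9%, 21.8% and 41.3% of all genes rose. In Podofilox, Antimycin A and Clofilium tosylate, the ATF4 median was above the NRF2 median of 0.83, 0.23 and 0.18. The NRF2 median was −0.36 in BerberineA, with 1 readout higher and 3 lower, and −0.30 in Dihydrorotenone, with 0 higher and 3 lower. These were the 2 compounds in which Slc7a11 fell. Their ATF4 medians were 0.41, with 2 of 4 higher and 0 lower, and −0.08, with 0 higher and 1 lower. In Diphenyleneiodonium Cl the NRF2 median was 0.11, with 1 of 4 higher and 0 lower. The ATF4 median there was −0.13, with 1 higher and 1 lower, where 14.0% of all genes rose and 11.7% fell. Nqo1 did not always move with the NRF2 median. It was 142 to 150 TPM in Diphenyleneiodonium Cl, above the DMSO range of 79.4 to 108 TPM. In Podofilox it was 87.4 to 99.2 TPM and in BerberineA 103 to 107 TPM, both inside that range. Which programme set the level of any of the 6 genes was not tested.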

How the data were processed

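Per the series text, the authors quantified transcripts with kallisto, summarised them per gene with tximport and tested them with DESeq2; the submitters' processing notes name FastQC, kallisto 0.43.1 and mm10. The transcript index is not given in the sources used here. The authors deposited TPM (transcript abundance corrected for transcript length and scaled to a fixed total), with 1 column per library and 29861 genes. TPM is relative to the other RNA of a library, so a level can move because other genes move, and it keeps no read depth; precision was judged from replicates alone. The series text speaks of 5 DMSO replicates; the labels give 6, and all were used.

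Symbols and positions come from GENCODE M21 (GRCm38), matched by Ensembl identifier for 98.5% of genes. Tests ran on log2(TPM + 1), which understates changes of low genes, for genes reaching 1 TPM in 3 or more libraries. A single model held all 9 groups (limma 3.58.1, R 4.3.3), with empirical Bayes moderation, an intensity trend and no other covariate, and p-values were adjusted (Benjamini-Hochberg, threshold 0.05) over the 13644 genes of each comparison with DMSO, or over genes and pairs for the 28 pairs of compounds. Ratios within a library were compared by two-sided exact permutation tests adjusted over 24 tests. Intervals are 95% intervals of the fit. The fit was also run on simulated independent normal values with its own spread per gene. These meet the assumptions of the model, so the run does not show how well they hold for these libraries. The share of 31-base words that a gene shares with others was counted in the reference transcripts.

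Named genes were the 6 members, a list of their direct partners, and the largest rise and fall of the pathway list in each compound. The readouts of NRF2 and ATF4 and the 3 genes most like each member were also named. Largest falls not described above were Csad in Antimycin A (−0.45), Slc6a9 in Dihydrorotenone (−0.51) and Dpep1 in Clofilium tosylate (−0.50). The members and lists were chosen with earlier results of these data known, so their counts are no independent support.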

Additional observations from a re-analysis of the deposited data

Results flagged for a closer look

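In DMSO, 24 values were screened for a library far from the other 5, a screen that chance alone passes in about 1 of 20 groups. Slc7a11 was at 25.7 TPM in DMSO replicate 4, while the other 5 libraries ran from 15.7 to 19.4 TPM. Gsr was at 27.99 TPM in the same library, while the others ran from 21.3 to 23.6 TPM. The gaps to the nearest library were 0.625 and 0.658 of the whole range, at or above the critical value of 0.625 for 6 libraries. Gclc was also highest in this library, at 64.5 TPM, without passing the screen.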

How the results depend on the processing

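Alternatives were pseudocount, filters, 3 scalings, no intensity trend, protein-coding genes only, compound with DMSO alone, a replicate block, and each library left out. Of 960 values for single genes under them, 925 kept their side of the threshold, 30 calls were lost, 5 were gained and 0 reversed. The 925 include 15 values that passed in neither fit and changed sign. The rises of Slc7a11, Gclc, Gclm, Gss and Gsr and the fall of Glrx in Cardamonin and AEG 3482 kept their calls in every alternative run. Genes changed in Dihydrorotenone went from 3 to 1 with the replicate block, to 1 with the compound and DMSO alone, and to between 1 and 3 with a library left out. Pairs that differed ranged from 127 to 134 of 168.

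The Gclm to Gclc ratio passed in 1 compound by exact permutation, in 5 by limma and in 5 by limma with a replicate block. The Gss to Gclc ratio passed in 2 by permutation, in 4 by limma in 1 fit (Antimycin A and Dihydrorotenone added) and in 3 with the block (Diphenyleneiodonium Cl added). Slc7a11 to Slc3a2 passed in 3, in 4 (Dihydrorotenone added) and in 3. With any DMSO library left out, 0 compounds passed for any of the 3 ratios, with a smallest adjusted p of 0.0536; the 56 splits then allow no exact permutation p below 0.0179. The ratio alternatives left out DMSO libraries and no compound libraries.

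Over all tested genes, same-numbered libraries showed no shared deviation: their deviations correlated at −0.107 to 0.151 (median 0.008) and those of others at −0.161 to 0.135 (median 0.001). Whether same-numbered libraries shared a culture or a day cannot be told from these values. In the block fit, DMSO replicates 4 to 6 add no information. It gained Slc7a11 in Diphenyleneiodonium Cl (0.32) and Gclc in Clofilium tosylate (0.26), and lost Gclc (−0.15) and Gclm (−0.20) in Dihydrorotenone and Gss in Podofilox (0.19). Read depth is unknown, so no counting error can be given for any value.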
